A study of Saccharomyces cerevisiae with 30 samples.

Results

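The transcriptome responses to rapid loss of 2 nuclear RNA-processing enzymes, Las1 and Rrp44, were set against each other in budding yeast. For each gene the auxin-induced change in Las1-AID cells was compared with that in Rrp44-AID cells, as a treatment by strain interaction. Members of the comparison are the 8 libraries of these strains among the 30 samples of the series, and 6270 of the 7126 annotated features had a mean value of at least 10 over those libraries and were tested. Differences are given on the log2 scale as the Las1 response minus the Rrp44 response, so a positive value means that a gene rose more, or fell less, after Las1 depletion.

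Las1 is the endoribonuclease that cuts the second internal transcribed spacer (ITS2) of the ribosomal RNA precursor and so separates the 5.8S part from the 25S part of the large subunit. Rrp44, encoded by DIS3, is the catalytic exonuclease and endonuclease of the RNA exosome, which trims the 3′ end left by that cut and also degrades or matures many other nuclear RNAs, among them small nucleolar RNAs (snoRNAs), cryptic transcripts and prematurely terminated mRNAs. Loss of either enzyme therefore blocks large subunit assembly, while loss of the exosome also leaves its other substrates undegraded.

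All strains were MATa derivatives of BY4741, carried OsTIR1, the auxin receptor F-box protein of rice, under the GPD1 promoter at leu2, and carried RPB3-3xFLAG. In Las1-AID cells the LAS1 gene, and in Rrp44-AID cells the RRP44 gene, was fused at its own locus to a 3xV5-IAA7 degron. WT cells had OsTIR1 and no degron, and their 4 libraries give the background of auxin itself. Cells growing exponentially in rich medium were mock-treated or given 100 µM auxin (indole-3-acetic acid) for 20 min, and total RNA was depleted of ribosomal RNA before sequencing. Each group had 2 libraries, A and B, which were separate isolates grown and treated on separate days, so equal letters pair mock and auxin within a strain. The degron removes protein, so the LAS1 and DIS3 mRNAs do not report the depletion. Protein loss was not measured in these files.

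Libraries of the 2 degron strains held 15014154 to 27859055 reads on features, and those of WT 36377539 to 98070287. All 7 a-cell markers were detected in every strain, with a summed value of 35763 to 47285 in Las1-AID and 48101 to 56551 in Rrp44-AID libraries, whereas the 6 alpha-cell markers summed to 754 to 988 and 865 to 1326, with 2 of them at 0 in all libraries. These sums go with the MATa label. In WT cells, auxin called 0 of 6295 features (0%) with limma, and 48 had an unadjusted p under 0.05. The tables of the strains were normalized separately, so values are compared as changes within a strain, and levels are set across strains only as RPM, reads per 1000000 recovered reads.

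The 2 responses were largely shared. Las1 depletion raised 1006 (16.5%) and lowered 1052 (17.2%) of 6103 features, and Rrp44 depletion raised 958 (15.1%) and lowered 646 (10.2%) of 6343 (limma, Benjamini-Hochberg adjusted p under 0.05, n = 2 per group). Of the features tested in the comparison, 583 rose and 496 fell in both strains by these calls, and 6 moved in opposite directions. Across the 6270 features the responses had a Pearson r of 0.79, given as a description because genes are not independent replicates.

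**Figure D1:**
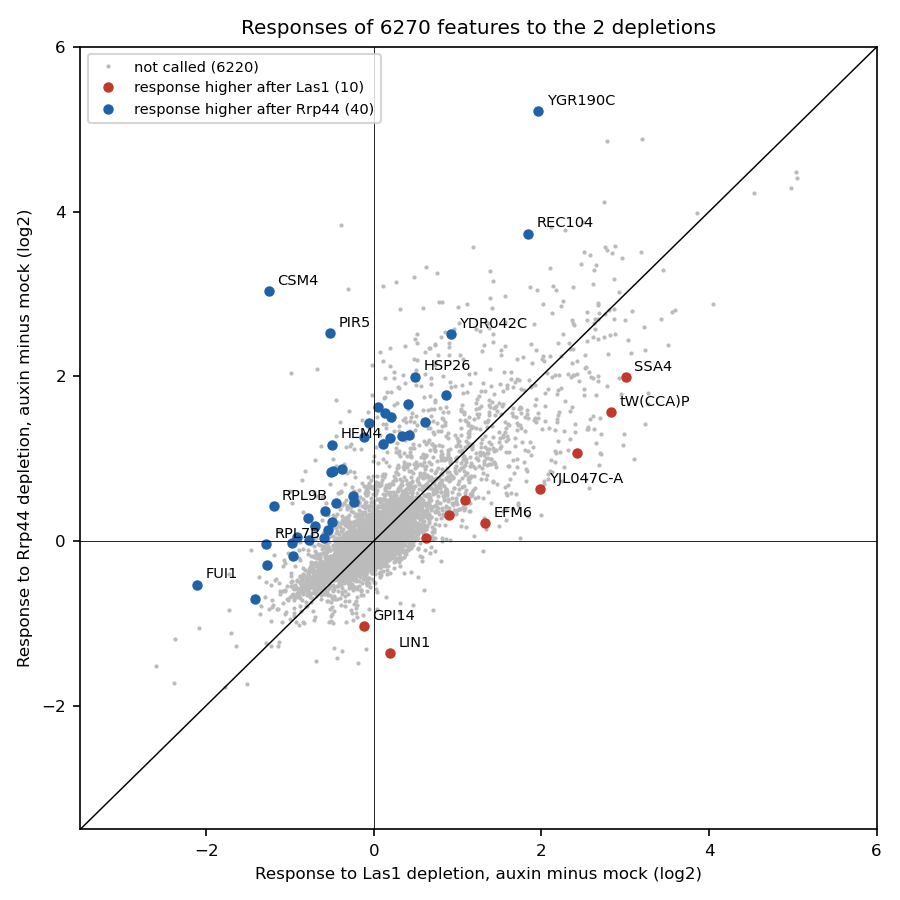
Response to Las1 depletion (x axis) against response to Rrp44 depletion (y axis), both auxin minus mock on the log2 scale, for the 6270 features tested. Grey points were not called, the 10 red points had the higher response after Las1 depletion and the 40 blue points the higher response after Rrp44 depletion; the line marks equal responses.

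An unadjusted p under 0.05 in limma was found for 814 of the 6270 features. After adjustment the responses differed for 50 features by limma. Of these, 10 (0.159% of 6270) had the higher response to Las1 depletion, and 40 (0.638%) had the higher response to Rrp44 depletion. At least 2-fold differences were seen in 6 and 22 of them. A fit with the replicate letter as a block within each strain takes equal letters as the same day. Its counts were 48 (0.766%) and 121 (1.93%), and all 50 features were among them. All 50 had both same-letter changes of one strain above both of the other, which held for 3138 of the 6270 features tested. Calls depended on single libraries. Without Rrp44-AID auxin replicate A, 2 of the 50 were still called, and the total counts were 0 and 2. Without Las1-AID mock replicate A the counts were 0 and 7, without Las1-AID mock replicate B or Rrp44-AID auxin replicate B they were 0 and 9, without Las1-AID auxin replicate B they were 1 and 17, without Rrp44-AID mock replicate A they were 5 and 25, without Las1-AID auxin replicate A they were 25 and 102, and without Rrp44-AID mock replicate B they were 23 and 113. No difference of the 50 changed sign in any of these fits, which reuse the libraries by which the 50 were called.

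The 40 features with the higher response to Rrp44 depletion fell into 5 patterns by the calls within each strain. For 13 the Rrp44 response alone was called and was a rise, for 11 the Las1 response alone was called and was a fall, 8 rose in both strains, 2 fell in both, and 6 fell after Las1 and rose after Rrp44 depletion. Of the 10 features with the higher response to Las1 depletion, 6 rose in both strains, 2 rose after Las1 depletion alone, and 2 fell after Rrp44 depletion alone.

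**Figure D2:**
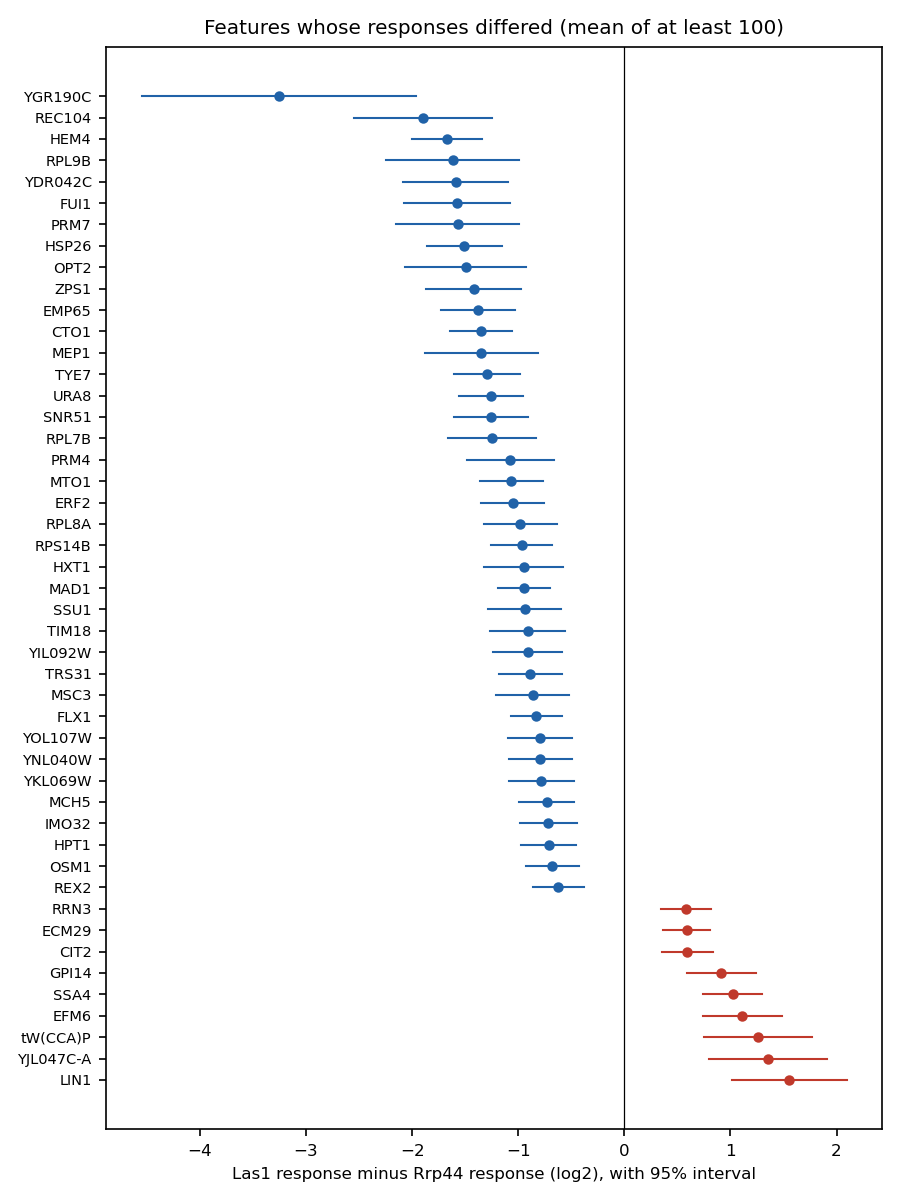
Las1 response minus Rrp44 response (log2, x axis) with its 95% interval from limma for the called features that had a mean of at least 100 over the 8 libraries, one per row. Blue features had the higher response after Rrp44 depletion, from YGR190C at -3.26 to REX2 at -0.62, and red features after Las1 depletion, from RRN3 at 0.58 to LIN1 at 1.55.

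Several of the best supported differences lay next to snoRNA genes. HEM4 encodes uroporphyrinogen III synthase of the heme pathway and lies 210 bases downstream of SNR5 on the same strand (R64, chrXV:842817-843644). Its normalized counts were 537 and 523 in mock and 362 and 387 in auxin libraries of Las1-AID cells, and 703 and 605 in mock and 1430 and 1510 in auxin libraries of Rrp44-AID cells. Every Las1-AID auxin value was below, and every Rrp44-AID auxin value above, the mock values of its strain. The responses were -0.50 and 1.17, and the difference was -1.67 ± 0.15 (SE; limma adjusted p = 0.0071, n = 2 per group). CTO1, whose loss affects growth in the cold, lies 193 bases downstream of SNR33 and gave 935 and 900 in mock and 654 and 629 in auxin libraries of Las1-AID cells. In Rrp44-AID cells CTO1 gave 1306 and 1312 in mock and 2168 and 2526 in auxin libraries. The groups again did not overlap within either strain, and the difference was -1.35 ± 0.13 (limma adjusted p = 0.0080). HEM4 and CTO1 were the only 2 features still called in all 19 alternative fits.

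YDR042C, an uncharacterized reading frame 398 bases downstream of SNR47, gave 127 and 117 in mock and 246 and 218 in auxin libraries of Las1-AID cells. In Rrp44-AID cells it gave 750 and 1047 in mock and 5276 and 4843 in auxin libraries. It rose in both strains, 1.89-fold and 5.70-fold, with a difference of -1.59 ± 0.22 (limma adjusted p = 0.019). FLX1, the mitochondrial FAD carrier, lies 148 bases downstream of SNR68 and also rose in both, 1.53-fold and 2.72-fold (difference -0.83 ± 0.11, limma adjusted p = 0.013). TRS31, a subunit of the TRAPP vesicle-tethering complex, lies 279 bases downstream of SNR13. Its values were 1116 and 1145 in mock and 710 and 677 in auxin libraries of Las1-AID cells, and 1272 and 1169 in mock and 1477 and 1298 in auxin libraries of Rrp44-AID cells. TRS31 thus fell after Las1 depletion, by 0.70, while its Rrp44 response of 0.18 was not called (difference -0.89 ± 0.13, limma adjusted p = 0.027).

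These 5 were all of the called genes whose nearest upstream feature was a snoRNA on the same strand within 600 bases, a class defined after these values were seen. They made up 13.2% of the 38 protein-coding genes with the higher response to Rrp44 depletion, and the class holds 19 of 5667 protein-coding genes tested, or 0.335%. Over all 19 genes, the 5 included, the difference was negative in 17, with a median of -0.25. Over the 5667 it was negative in 2982, with a median of -0.01. Because the class was defined with these values known, the lean is a description only. The other 14 genes of the class ranged from -0.53 for USE1 to 0.11 for BUD22 and were not called. The snoRNAs upstream of YDR042C, TRS31 and FLX1 had differences of -2.16 (SNR47), -1.47 (SNR13) and -1.11 (SNR68), and those upstream of HEM4 and CTO1 had -0.65 (SNR5) and -0.44 (SNR33), none of them called without the block. Responses of SNR5 and SNR33 to Rrp44 depletion were 0.10 and 0.20, neither called. Uncalled genes of the class also lay behind snoRNAs with large negative differences. Examples were SDD3 (-0.02) behind SNR58 (-2.51), SMC5 (-0.11) behind SNR50 (-1.44), NVJ2 (-0.24) behind SNR51 (-1.26) and SEN2 (-0.23) behind SNR79 (-1.20). For others, such as GAL11 (0.09) behind SNR81 (0.06), both differed little.

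In yeast, transcription of snoRNA genes is ended by the Nrd1-Nab3-Sen1 complex, which binds short motifs in the nascent RNA and hands the 3′ end to the exosome. The stretches from the snoRNA to the downstream gene are shown for SNR13 to TRS31 (279 bases, chrIV:1403043-1403321) and SNR68 to FLX1 (148 bases, chrIX:97247-97394), both plus strand, 5′ to 3′, read from the R64 genome. Capitals mark GTAG, the Nrd1 motif, and TCTTG, a Nab3 motif, on the strand of the genes.
SNR13 to TRS31: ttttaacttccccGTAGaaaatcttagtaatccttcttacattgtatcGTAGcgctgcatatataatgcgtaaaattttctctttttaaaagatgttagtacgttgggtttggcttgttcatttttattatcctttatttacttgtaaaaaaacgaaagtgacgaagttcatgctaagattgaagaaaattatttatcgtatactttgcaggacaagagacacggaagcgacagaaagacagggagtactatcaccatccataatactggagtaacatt
SNR68 to FLX1: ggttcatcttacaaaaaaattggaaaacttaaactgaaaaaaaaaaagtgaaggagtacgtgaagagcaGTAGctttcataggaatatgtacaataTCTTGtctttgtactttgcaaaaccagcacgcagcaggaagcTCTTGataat
The first stretch holds 2 GTAG and 0 TCTTG, and the second 1 GTAG and 2 TCTTG. In windows from 250 bases before to 50 bases after the start codon, TCTTG on the gene strand was present in 15 of 38 genes (39.5%) with the higher response to Rrp44 depletion and in 31.5% of all 5667, and GTAG in 19 of 38 (50%) and 54.3%. These matches are a description of letters and not of bound sites.

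A further 14 of the 38 genes (36.8%) had a divergently transcribed protein-coding neighbour within 600 bases upstream, as did 29.4% of all genes. For 11 of the 14 (78.6%) the neighbour had a negative response to Rrp44 depletion, as had 983 of 1600 such neighbours (61.4%) among all genes. The fall was called for 7 of the 14 and for 180 of the 1600. The clearest pair was REC104 and LIN1, which start 500 bases apart on chromosome VIII (REC104 at 412907-413455, LIN1 at 411384-412406). REC104 acts in meiotic recombination, and its normalized counts were 57.2 and 74.6 in mock and 247 and 226 in auxin libraries of Las1-AID cells. In Rrp44-AID cells REC104 gave 179 and 276 in mock and 3051 and 2899 in auxin libraries. It rose 3.58-fold and 13.3-fold, with auxin above mock in every pair (difference -1.90 ± 0.29, limma adjusted p = 0.031).

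LIN1, a protein associated with the U5 spliceosomal particle, gave 241 and 263 in mock and 262 and 315 in auxin libraries of Las1-AID cells, and 226 and 177 in mock and 82.8 and 72.1 in auxin libraries of Rrp44-AID cells. LIN1 overlapped between mock and auxin in Las1-AID cells and fell to 0.389-fold in Rrp44-AID cells, which gave the highest positive difference among the called features, 1.55 ± 0.24 (limma adjusted p = 0.032). The snoRNA SNR71 (chrVIII:411228-411317) lies beyond the 3′ end of LIN1 on the other strand. It had responses of 0.73 to Las1 and 2.39 to Rrp44 depletion. Its difference of -1.65 ± 1.01 was called in neither fit (limma adjusted p = 0.53, 0.30 with the block).

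The same arrangement was seen for MAD1, a spindle checkpoint protein, and its neighbour MMS2, a ubiquitin-conjugating variant. MAD1 gave 2198 and 2287 in mock and 2746 and 2926 in auxin libraries of Las1-AID cells, and 3261 and 3289 in mock and 8346 and 7583 in auxin libraries of Rrp44-AID cells. Rrp44 depletion raised MAD1 by 1.28 (difference -0.94 ± 0.11, limma adjusted p = 0.0090), while MMS2 fell by 0.99. EMP65, an endoplasmic reticulum membrane protein, rose by 1.26 and RTR1, an RNA polymerase II phosphatase, fell by 0.99. TIM18, of the mitochondrial inner membrane translocase, rose by 1.78 while MUM3 fell by 0.87. MSC3 rose by 1.29 and COA4, a cytochrome oxidase assembly factor, fell by 0.83. IMO32 rose by 0.48 and POP6, a subunit of RNase P and RNase MRP, fell by 0.96. Las1 responses of these neighbours were also negative, -0.48 (MMS2), -0.53 (RTR1), -0.95 (MUM3), -0.52 (COA4) and -0.25 (POP6). None of these neighbours was called as different between the strains. The genes beside them had Las1 responses of 0.34 (MAD1), -0.11 (EMP65), 0.87 (TIM18), 0.42 (MSC3) and -0.24 (IMO32). The other 3 of the 14 neighbours had positive responses to Rrp44 depletion. YIG1 and YGR121W-A, next to CSM4 and MEP1, rose by 1.98 and 1.45, and INO4, next to YOL107W, had 0.09. RPL7B, RPS14B and REX2 of the 14 did not themselves rise after Rrp44 depletion, with responses of -0.04, 0.05 and 0.03, nor did YOL107W, with -0.18. Whether the counting used strand is not given in the sources used here, so transcripts that overlap a gene on the other strand cannot be told apart from it.

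**Figure D3:**
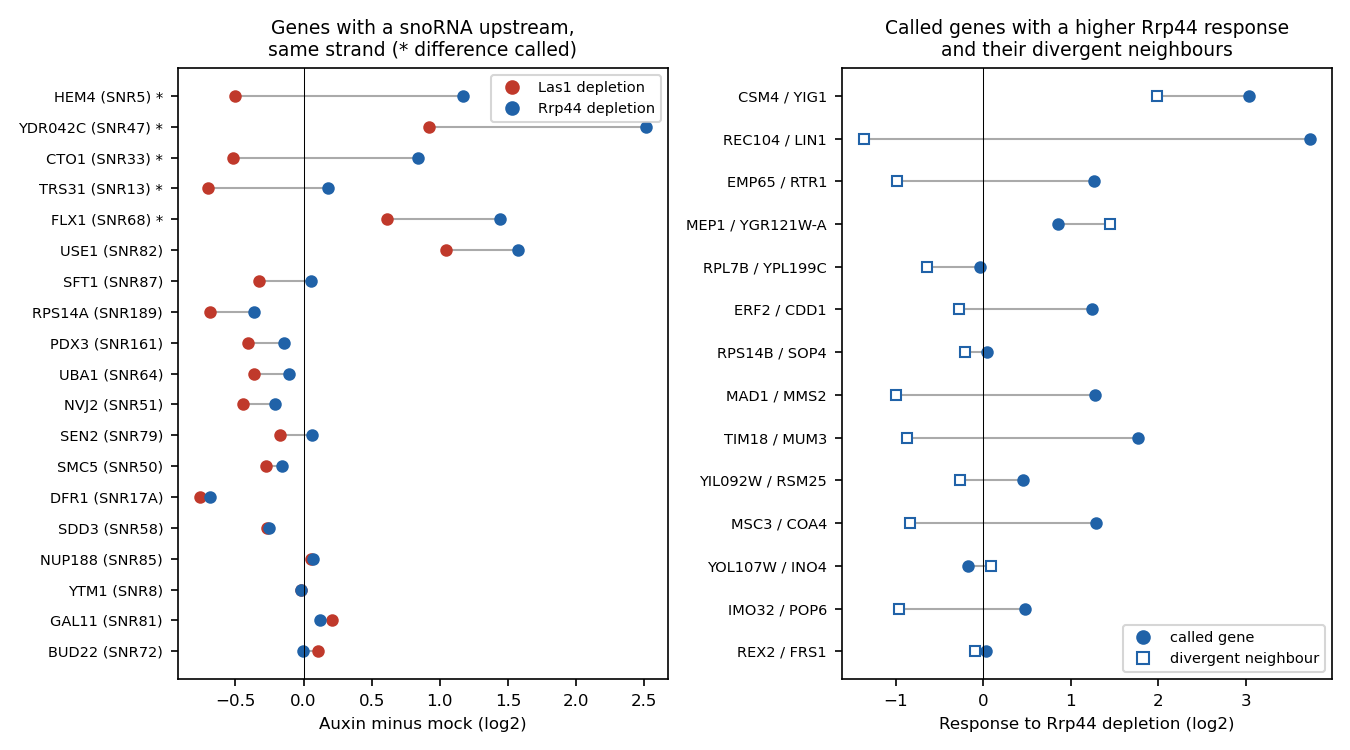
Left, responses to Las1 (red) and Rrp44 (blue) depletion (log2, x axis) for the 19 genes with a snoRNA upstream on the same strand, named in brackets, with asterisks on the 5 called genes. Right, response to Rrp44 depletion of the 14 called genes with a divergent neighbour (filled) and of that neighbour (open); 11 of the 14 neighbours lie below 0, as do 61.4% of divergent neighbours among all genes.

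The snoRNAs themselves leaned toward the higher response to Rrp44 depletion. Of 76 tested, 64 had a negative difference, against 53.0% of all features, with a median of -0.44 against -0.02, and 1 was called. With the block 17 were called, all with the higher response to Rrp44 depletion. The median was -0.71 without Las1-AID auxin replicate A and -0.15 without Las1-AID auxin replicate B. By the calls of each table, 8 of the 76 rose after Las1 and 32 after Rrp44 depletion, against 16.5% and 15.1% of all features. Their median response was 0.03 to Las1 and 0.36 to Rrp44 depletion. In WT cells the median was 0.12, with 0.36 in pair A and -0.11 in pair B, a spread similar in size to the shift.

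SNR51, the called member, is a C/D snoRNA, a class that guides 2′-O-methylation of RNA. Its sequence (chrXVI:718700-718806, minus strand, R64, 107 bases, shown as DNA) is given with TGATGA and CTGA in capitals, the letters of the C and D boxes that define this class.
SNR51: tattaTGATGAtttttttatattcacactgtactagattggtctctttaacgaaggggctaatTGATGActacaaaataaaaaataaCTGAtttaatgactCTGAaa
Normalized counts of SNR51 were 191 and 183 in mock and 269 and 229 in auxin libraries of Las1-AID cells, and 569 and 587 in mock and 1831 and 1840 in auxin libraries of Rrp44-AID cells. Auxin was above mock in every pair. SNR51 rose 3.17-fold after Rrp44 depletion and had 1.33-fold after Las1 depletion, which was not called (difference -1.26 ± 0.15, limma adjusted p = 0.011). The blocked calls included SNR58 at -2.51 and SNR13 at -1.47. The 8 snoRNAs that lie within another gene on the same strand, whose reads could be split between both, had a median of -0.75, the 17 in clusters -0.31, and the 51 others -0.47. The last group includes SNR60, whose 3′ part YJL047C-A overlaps.

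Features without a RefSeq match, tRNAs aside, more often rose than fell in both strains. Of 365 tested, 90 rose and 10 fell after Las1 and 179 rose and 6 fell after Rrp44 depletion. Among all features, 16.5% rose and 17.2% fell after Las1, and 15.1% rose and 10.2% fell after Rrp44 depletion. The median responses of the 365 were 0.59 and 0.91. The difference was negative in 230, with a median of -0.19, and 1 was called. Without Las1-AID auxin replicate A the median was -0.35, and without replicate B it was -0.09. That feature, YGR190C, gave 2.86 and 7.56 in mock and 17.4 and 26.4 in auxin libraries of Las1-AID cells, and 11.4 and 8.92 in mock and 456 and 375 in auxin libraries of Rrp44-AID cells, which made its rise in Rrp44-AID cells the highest called, at 5.22 (difference -3.26 ± 0.57, limma adjusted p = 0.042). CSM4, a meiotic chromosome protein, and PIR5, a cell wall protein, also rose in Rrp44-AID cells. Reads were few, and CSM4 had 3 and 2 reads in mock and 1 and 0 in auxin libraries of Las1-AID cells, and 5 and 8 in mock and 88 and 62 in auxin libraries of Rrp44-AID cells. Its fitted difference moved between -6.08 and -2.38 over the alternatives, so no fold is given.

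Transcripts of the nucleotide pathway also separated the strains. Several of these genes are known in yeast to be held down by early termination at an upstream start site or by Nrd1-Nab3, with the exosome removing the short product. URA8, a CTP synthase, gave 1638 and 1756 in mock and 1305 and 1300 in auxin libraries of Las1-AID cells, and 2596 and 2193 in mock and 4547 and 4224 in auxin libraries of Rrp44-AID cells. URA8 therefore fell in one strain and rose 1.84-fold in the other, with no overlap of mock and auxin (difference -1.26 ± 0.13, limma adjusted p = 0.0080). Its window (chrX:620504-620803, plus strand, R64) is shown with TCTTG in capitals, since it holds 2 copies on the gene strand and GTAG is not among its letters; the start codon is at base 251.
URA8: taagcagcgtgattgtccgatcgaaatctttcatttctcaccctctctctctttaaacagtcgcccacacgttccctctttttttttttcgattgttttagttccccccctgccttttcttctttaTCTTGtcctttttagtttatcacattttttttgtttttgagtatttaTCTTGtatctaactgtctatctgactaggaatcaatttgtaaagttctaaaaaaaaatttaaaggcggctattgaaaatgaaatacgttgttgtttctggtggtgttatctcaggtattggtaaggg

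Among the 7 genes listed for such attenuation, 1 was called, and the block added 3. IMD2, an IMP dehydrogenase of GTP synthesis, gave 1762 and 1241 in mock and 1912 and 1044 in auxin libraries of Las1-AID cells and 2928 and 2290 in mock and 7865 and 7448 in auxin libraries of Rrp44-AID cells. Replicates A and B of IMD2 differed more than mock and auxin did in Las1-AID cells, and the difference of -1.63 ± 0.37 was called with the block (adjusted p = 0.0011) and not without it (limma adjusted p = 0.10). ADE12, of AMP synthesis, had -0.69 (0.21 without and 0.021 with the block, limma adjusted p), and URA2, of pyrimidine synthesis, -0.42 (0.26 and 0.18). NRD1, which encodes the termination factor and limits its own mRNA, went the other way. It rose 3.05-fold after Las1 and 1.88-fold after Rrp44 depletion (difference 0.70 ± 0.22, limma adjusted p = 0.23, 0.024 with the block).

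The uridine permease gene FUI1 and HPT1, the hypoxanthine-guanine salvage enzyme, fell in both strains and fell further after Las1 depletion. FUI1 gave 2541 and 1966 in mock and 604 and 442 in auxin libraries of Las1-AID cells, and 3209 and 3030 in mock and 2202 and 2113 in auxin libraries of Rrp44-AID cells. The auxin values lay below mock in both strains, at 0.232-fold and 0.692-fold (difference -1.58 ± 0.22, limma adjusted p = 0.020). HPT1 fell to 0.375-fold and 0.616-fold (difference -0.71 ± 0.11, limma adjusted p = 0.032).

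**Figure D4:**
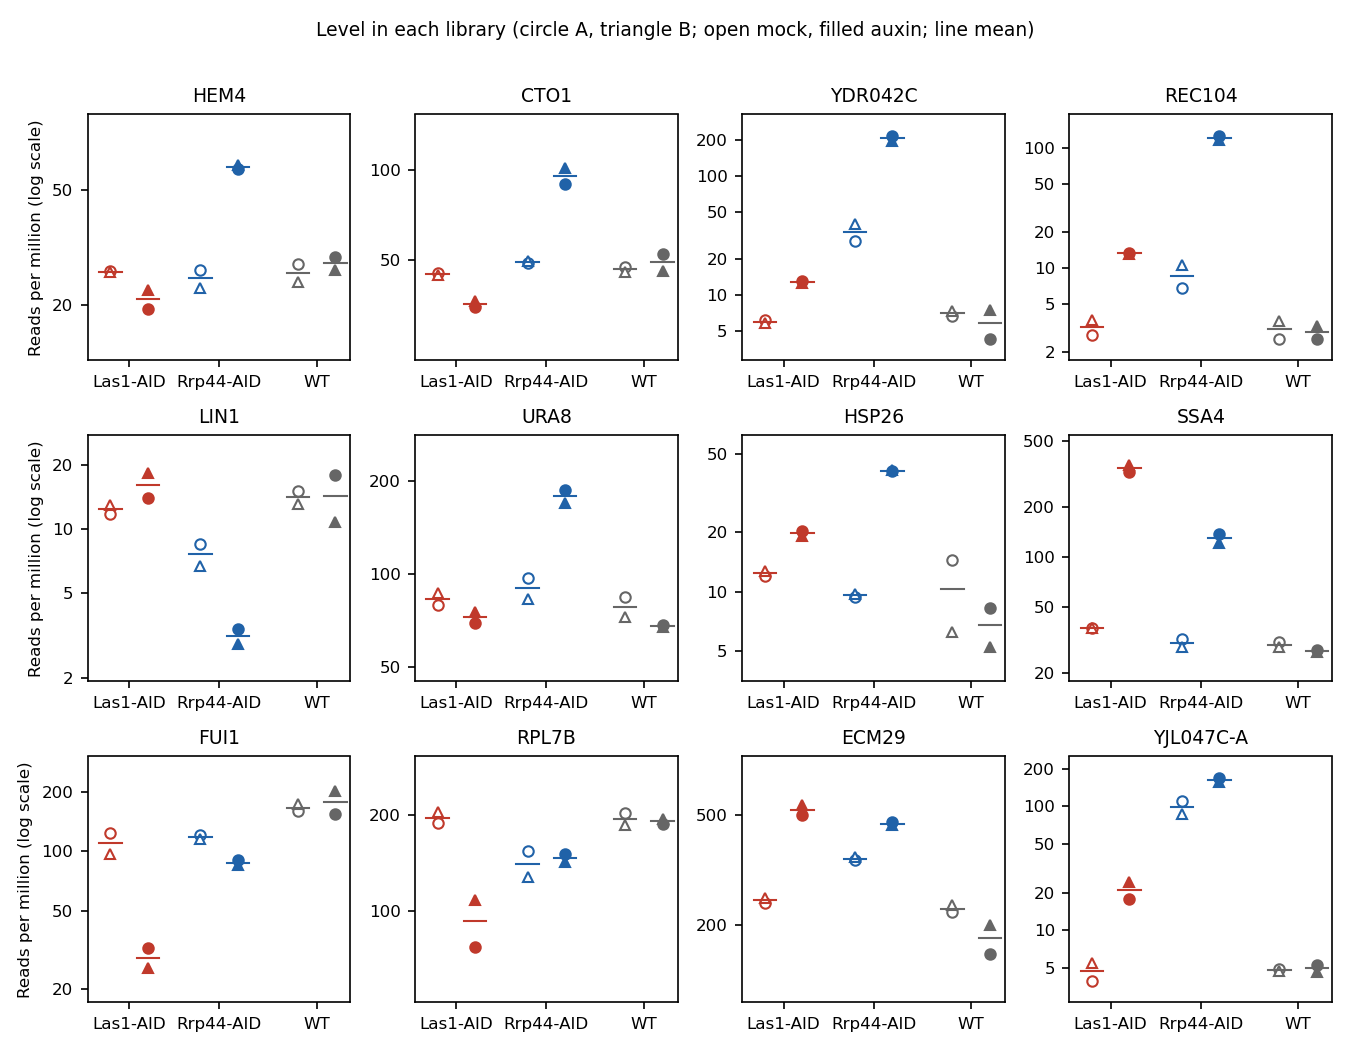
RPM (y axis, log scale) of 12 features in each library of Las1-AID (red), Rrp44-AID (blue) and WT (grey) cells. Open symbols are mock and filled symbols auxin, circles replicate A and triangles replicate B, and lines are group means; mock levels of YDR042C, REC104 and YJL047C-A were higher in Rrp44-AID than in Las1-AID and WT cells.

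Ribosomal protein (r-protein) genes fell in both strains, with the lower median in Las1-AID cells. By the calls of each table, 133 of 135 fell after Las1 and 126 after Rrp44 depletion, against 17.2% and 10.2% of all features. Median responses of the 135 were -0.82 and -0.54. The difference was negative in 132 of the 135, with a median of -0.27, 4 were called and 10 with the block. The median was -0.46 without Las1-AID auxin replicate A and -0.09 without Las1-AID auxin replicate B. The pair medians were -0.69 and -0.95 in Las1-AID and -0.65 and -0.43 in Rrp44-AID cells, and the closest of them, -0.69 and -0.65, differed little. Letters are taken to pair libraries within a strain, and a match of letters across strains is not given. In WT the pair medians were 0.38 and 0.01, a wider spread between pairs than the difference between the strains. Large and small subunit genes had medians of -0.27 and -0.28, and those with introns -0.28.

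The called r-protein genes were RPL7B, RPL8A, RPL9B and RPS14B, each the copy with fewer reads in its duplicated pair. RPL7B gave 3879 and 4124 in mock and 1444 and 1861 in auxin libraries of Las1-AID cells, and 4096 and 3359 in mock and 3669 and 3553 in auxin libraries of Rrp44-AID cells. It fell to 0.410-fold after Las1 depletion and its values overlapped between mock and auxin in Rrp44-AID cells (difference -1.25 ± 0.18, limma adjusted p = 0.027). RPL9B gave 4875 and 4159 in mock and 2468 and 1568 in auxin libraries of Las1-AID cells, and 6194 and 5309 in mock and 6968 and 8481 in auxin libraries of Rrp44-AID cells (difference -1.62 ± 0.28, limma adjusted p = 0.039). RPL9B went down in one strain and up in the other.

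RPL8A and RPS14B differed by -0.98 and -0.97, and their paralogs by less. RPL7A had -0.23, RPL8B -0.25, RPL9A -0.21 and RPS14A -0.32, none of them called with or without the block, and the difference between paralogs was not tested. Paralogs share near-identical coding sequences, so reads could be split between the copies. RPL4A and RPL4B, the genes of the L4 protein, fell to 0.236-fold and 0.165-fold after Las1 and to 0.479-fold and 0.348-fold after Rrp44 depletion, with differences of -1.02 and -1.08 that were called with the block only (limma adjusted p = 0.083 and 0.053 without, 0.015 and 0.0070 with it). RPL22B had -0.66 and was called in neither fit. The ribosome biogenesis list had a median of 0.03 over 186 and 2 calls, RPL8A and RPS14B, which are r-protein genes that the list also holds. The 36 nuclear 60S assembly factors (median 0.03) and the 7 genes of the Las1 complex and 5′ exonucleases (0.02) had 0 calls, with 1 and 1 members at an unadjusted p under 0.05, and 0 with the block.

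Most targets of Hsf1, the heat shock transcription factor, rose in both strains. Of 41 targets, 36 rose after Las1 and 33 after Rrp44 depletion, against 16.5% and 15.1% of all features. The medians of the targets were 1.06 and 0.83, and their median difference was 0.10 with 28 positive. This list is the study's own. The called members were SSA4 and HSP26, in opposite directions. SSA4, a stress-inducible Hsp70, gave 771 and 760 in mock and 6090 and 6223 in auxin libraries of Las1-AID cells, and 854 and 762 in mock and 3373 and 3036 in auxin libraries of Rrp44-AID cells. Auxin was far above mock in both strains, 8.04-fold and 3.96-fold (difference 1.02 ± 0.12, limma adjusted p = 0.011).

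HSP26, a small heat shock protein, gave 248 and 258 in mock and 382 and 330 in auxin libraries of Las1-AID cells, and 250 and 257 in mock and 998 and 1032 in auxin libraries of Rrp44-AID cells. Its rise was 1.40-fold and 3.99-fold (difference -1.51 ± 0.16, limma adjusted p = 0.0080). Other chaperone genes differed by less and were not called. The differences were 0.17 for SSA1 (95% interval -0.39 to 0.72), 0.15 for HSP82 (-0.33 to 0.63), 0.39 for the disaggregase HSP104 (0.06 to 0.72), 0.17 for HSP42 (-0.12 to 0.46) and -0.24 for BTN2 (-0.52 to 0.04). The 204 targets of the general stress factors Msn2 and Msn4 had a median of 0.02 and 0 calls. Of them 34 were at an unadjusted p under 0.05, as were 814 of all 6270 features. With the block 3 were higher after Las1 and 2 higher after Rrp44 depletion. HSP12 and TPS2 of that group had 0.12 and 0.16.

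**Figure D5:**
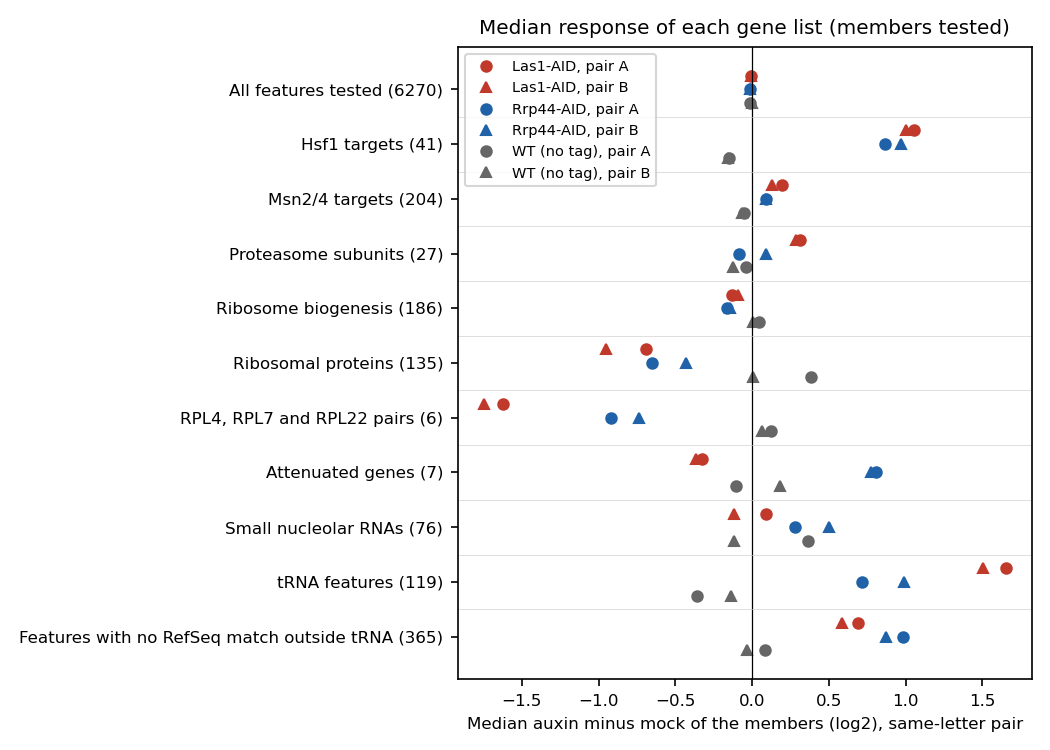
Median auxin minus mock change (log2, x axis) of the members of each gene list in every same-letter pair, with circles for pair A and triangles for pair B. Las1-AID is red, Rrp44-AID blue and WT, without a degron, grey; the number of members tested stands in brackets.

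All 27 proteasome subunit genes had a positive difference, against 47.0% of all features. The median was 0.29, from 0.05 to 0.50, and the medians within the strains were 0.29 after Las1 and 0.01 after Rrp44 depletion. By the calls of each strain, 17 of the 27 rose after Las1 and 0 after Rrp44 depletion, against 16.5% and 15.1% of all features. None was called in the comparison, and 17 had an unadjusted p under 0.05, against 814 of all 6270 features. With the block 1 was called, RPN11, the deubiquitinase of the lid. RPN11 rose by 0.53 and had 0.03 in Rrp44-AID cells (difference 0.50 ± 0.11, limma adjusted p = 0.083, 0.045 with the block). RPN4, the transcription factor of proteasome genes, rose 2.69-fold and 2.19-fold (difference 0.29 ± 0.17, limma adjusted p = 0.50).

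ECM29, which binds and stabilizes the assembled proteasome, was called. ECM29 gave 4948 and 5066 in mock and 9365 and 9313 in auxin libraries of Las1-AID cells, and 9118 and 9289 in mock and 11433 and 11425 in auxin libraries of Rrp44-AID cells. Auxin was above mock in all pairs, 1.87-fold and 1.24-fold (difference 0.59 ± 0.10, limma adjusted p = 0.037). The windows of ECM29 (chrVIII:39834-40133) and RPN11 (chrVI:153143-153442), from 250 bases before to 50 bases after the start codon in R64, are shown because the proteasome genes moved together. Capitals mark GGTGGCAAA, the Rpn4 site, searched on both strands.
ECM29: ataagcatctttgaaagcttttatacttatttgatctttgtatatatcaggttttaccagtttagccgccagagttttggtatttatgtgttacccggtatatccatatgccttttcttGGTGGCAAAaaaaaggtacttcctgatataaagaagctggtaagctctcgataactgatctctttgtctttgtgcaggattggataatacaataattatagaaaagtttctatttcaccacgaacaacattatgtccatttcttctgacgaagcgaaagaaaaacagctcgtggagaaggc
RPN11: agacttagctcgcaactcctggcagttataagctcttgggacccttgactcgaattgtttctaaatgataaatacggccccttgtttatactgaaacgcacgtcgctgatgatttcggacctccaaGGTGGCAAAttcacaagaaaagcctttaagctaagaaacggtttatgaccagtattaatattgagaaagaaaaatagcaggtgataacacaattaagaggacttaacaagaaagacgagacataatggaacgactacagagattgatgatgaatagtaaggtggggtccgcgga
The site was present in 23 of 27 proteasome windows (85.2%) and in 1.25% of all 5667, and ECM29 was the only gene among the 8 with the higher response to Las1 depletion that had it. The heat shock element core GAANNTTC was in 43.9% of Hsf1 target windows, in 11.9% of all, and in 0 of those 8 genes and 5 of the 38. AGGGG, the stress response element, was in 1 of the 8, 6 of the 38 and 21.8% of all, and GATGAG, the PAC element of biogenesis genes, in 2, 7 and 19.9%, both searched on both strands.

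Mock levels of Rrp44-AID cells stood beside many of the positive differences. In 6 of the 10 features with the higher response to Las1 depletion, both Rrp44-AID mock libraries were above all mock libraries of Las1-AID and WT cells in RPM. The share over all features was 19.2%, but the Rrp44-AID mock values enter the difference by which the 10 were called, so the count is a description only. In ECM29 these levels were 343 and 353 in Rrp44-AID, 241 and 251 in Las1-AID and 223 and 236 in WT mock libraries. With auxin, ECM29 had 471 and 460 in Rrp44-AID and 500 and 541 in Las1-AID cells. The proteasome list had 13 of 27 genes with such a mock level. The part of these raised mock levels in the smaller Rrp44 response was not tested.

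YJL047C-A was the extreme case. This small reading frame (chrX:349044-349178) overlaps the 3′ part of SNR60 (chrX:349130-349233) on the same strand, so reads in the shared part cannot be told apart. YJL047C-A had a mean value of 1770 over the 8 libraries, against 24.3 for SNR60. Its mock level was 110 and 86.2 RPM in Rrp44-AID, 3.94 and 5.43 in Las1-AID and 4.87 and 4.73 in WT cells, which is 20.6-fold and 20.1-fold higher in Rrp44-AID cells. With auxin it reached 168 and 158 in Rrp44-AID and 18.0 and 24.4 in Las1-AID cells. Its positive difference of 1.36 ± 0.25 (limma adjusted p = 0.047) thus stood on a level that was 7.65-fold higher in Rrp44-AID than in Las1-AID cells after auxin.

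EFM6, a methyltransferase of elongation factor 1A, and RRN3, an initiation factor of RNA polymerase I, also had the higher mock level in Rrp44-AID cells. EFM6 gave 128 and 132 in mock and 340 and 316 in auxin libraries of Las1-AID cells, and 437 and 398 in mock and 461 and 509 in auxin libraries of Rrp44-AID cells (difference 1.11 ± 0.17, limma adjusted p = 0.027). Its mock level in RPM was 2.45-fold that of Las1-AID cells and its auxin level 1.08-fold. RRN3 rose 1.54-fold after Las1 depletion and had 1.03-fold in Rrp44-AID cells (difference 0.58 ± 0.10, limma adjusted p = 0.042), with a mock level 1.43-fold and an auxin level 0.907-fold that of Las1-AID cells. NRD1 mock levels were 312 and 440 in Rrp44-AID, 172 and 201.5 in Las1-AID and 130 and 184 in WT cells.

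Raised mock levels were also found among the features with the higher response to Rrp44 depletion, in 14 of 40 (35%). For YDR042C they were 28.2 and 39.8 RPM in Rrp44-AID against 6.16 and 5.80 in Las1-AID mock libraries, for FLX1 62.8 and 62.3 against 33.9 and 32.1, and for SNR51 21.4 and 22.3 against 9.26 and 9.08. CTO1 is among the 14 with a small gap, at 1.10-fold of the Las1-AID mock level, and HEM4 is not among them, at 0.949-fold. Lower mock levels in Rrp44-AID cells also occurred among the 40. YNL040W had 0.372-fold of the Las1-AID level in mock and 0.610-fold after auxin, and PRM7 had 0.470-fold in mock.

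The tRNA features leaned toward the higher response to Las1 depletion. Only 119 of 299 had enough reads to be tested, 107 of them had a positive difference, and the median was 0.81, with responses of 1.63 and 0.90. In WT the median was -0.22. Mock levels of 50 of the 119 (42.0%) were higher in both Rrp44-AID libraries than in all Las1-AID and WT mock libraries, against 19.2% of all features. The median Rrp44-AID level was 0.59 (log2 RPM) above the Las1-AID level in mock and 0.20 below it after auxin, and the part of the mock levels in the tRNA difference was not tested. The called members were tW(CCA)P, a tryptophan tRNA, and tI(AAU)G, an isoleucine tRNA, and 7 were called with the block. tW(CCA)P gave 20.0 and 21.7 in mock and 149 and 160 in auxin libraries of Las1-AID cells, and 122 and 108 in mock and 329 and 356 in auxin libraries of Rrp44-AID cells. It rose 7.11-fold and 2.96-fold (difference 1.26 ± 0.23, limma adjusted p = 0.044), from a mock level 3.95-fold higher in Rrp44-AID than in Las1-AID cells. tI(AAU)G gave 29.5 and 30.2 in mock and 159 and 171 in auxin libraries of Las1-AID cells, and 53.4 and 53.5 in mock and 112 and 114 in auxin libraries of Rrp44-AID cells (difference 1.36 ± 0.24, limma adjusted p = 0.042). Copies of 1 tRNA share their sequence, so reads could be split among them, and the median fell to 0.47 with a pseudocount of 10. Counts on a tRNA feature do not tell mature tRNA from precursors or from transcripts that run through it.

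The remaining named genes belonged to metabolism and the cell surface. GPI14, a mannosyltransferase of GPI anchor synthesis, gave 1171 and 1073 in mock and 969 and 1101 in auxin libraries of Las1-AID cells, and 1162 and 1045 in mock and 524 and 552 in auxin libraries of Rrp44-AID cells, so that it fell in the second strain alone (difference 0.92 ± 0.14, limma adjusted p = 0.032). CIT2, the peroxisomal citrate synthase, rose 2.12-fold and 1.41-fold (difference 0.60 ± 0.11, limma adjusted p = 0.046), and it had 0.76 in WT cells given auxin, which was not called. PRM7, a pheromone-regulated gene, gave 363 and 265 in mock and 294 and 352 in auxin libraries of Las1-AID cells, and 214 and 167 in mock and 604 and 565 in auxin libraries of Rrp44-AID cells (difference -1.57 ± 0.26, limma adjusted p = 0.037). In RPM its Rrp44-AID mock level was 0.470-fold that of Las1-AID and 0.404-fold that of WT cells. Its Rrp44-AID auxin level was 1.32-fold that of Las1-AID cells. The part of the low mock level in the PRM7 difference was not tested. HXT1, a low-affinity glucose transporter, fell to 0.508-fold after Las1 depletion and had 0.980-fold in Rrp44-AID cells (difference -0.95 ± 0.16, limma adjusted p = 0.041). TYE7, a transcription factor of glycolytic genes, rose 2.83-fold after Rrp44 depletion and had 1.16-fold in Las1-AID cells (difference -1.29 ± 0.14, limma adjusted p = 0.0080).

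The mRNAs of the depleted enzymes differed little between the strains. LAS1 had a difference of 0.04 (95% interval -0.23 to 0.31) and DIS3 -0.22 (-0.46 to 0.02). The 25 genes of the exosome, TRAMP, Ski and Nrd1 complexes had a median of 0.07 and 0 calls (2 at an unadjusted p under 0.05), with NRD1 alone called with the block. Histone genes (median 0.04 over 11), Hac1-dependent genes of the unfolded protein response (-0.04 over 23) and translation factor genes (-0.05 over 30) had 0 calls with and without the block, and 0, 5 and 0 members at an unadjusted p under 0.05. Intron-containing genes outside the r-protein list had a median of -0.01 over 167 and 0 calls, 24 at an unadjusted p under 0.05 and 2 with the block. Among all 6270 features, 814 were at an unadjusted p under 0.05. Among 23 meiosis genes, REC104 alone was called, and the median difference was -0.19.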

How the data were processed

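Strand-specific RNA-seq libraries of mock and auxin-treated cells were trimmed with Cutadapt, aligned with TopHat2 2.1.0 and counted with HTSeq by the authors. The deposited values are a signal, gene counts that the authors divided by DESeq2 size factors, with each strain's table normalized separately. Whether HTSeq used strand is not given in the sources used here. Features with a mean of at least 10 were tested on log2(value + 1) with limma 3.58.1 (R 4.3.3; eBayes with trend, two-sided, Benjamini-Hochberg, adjusted p under 0.05), as the treatment by strain interaction over 8 libraries, and each strain alone. Fold changes on this scale understate the change of low features. The fit was also run on simulated counts with a fixed small spread and no isolate or day effect. That run does not gauge the spread between the real libraries.

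Low values were whole multiples of 1 read in 100% of cases within 0.001 reads, and the recovered reads gave 52 calls with edgeR 4.0.16 and 126 with DESeq2 1.42.0. For mock replicate B of Rrp44-AID a separate automated check of this recovery did not accept the step size, so those fits and the RPM levels rest on it with that reserve. Equal letters were taken to pair mock and auxin by day, which the protocol does not state. Same-letter deviations from group means correlated at 0.18 in Las1-AID, 0.25 in Rrp44-AID and 0.45 in WT. The replicate block within strain is the alternative fit. Other alternatives were the pseudocount, the filter, scaling, the trend and leaving out each library.

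Named genes were LAS1 and DIS3, the 8 largest differences in each direction among calls with a mean of at least 100 and non-overlapping pairs, the largest called members of each list, and a set of stress, nucleotide and r-protein genes. Others were chosen after their values were seen, as were the classes by neighbouring gene. The members and lists were chosen with earlier results of these data known. The Hsf1, Msn2/4, r-protein, proteasome, ribosome biogenesis and unfolded protein response lists are the study's. The ribosome biogenesis list as used here holds RPL8A and RPS14B, although the paper describes its plotted set as free of r-protein genes. Of 7126 features 6162 matched RefSeq R64, the source of coordinates and sequences. An exact permutation test cannot pass the threshold at this group size, 2 and 2.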

Additional observations from a re-analysis of the deposited data

Results flagged for a closer look

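All 50 called features had responses that differed between the strains by the interaction test of limma, so each is listed with its Las1 response minus Rrp44 response on the log2 scale. The differences below -1.5 were those of CSM4 (-4.29), YGR190C (-3.26), PIR5 (-3.04), REC104 (-1.90), HEM4 (-1.67), RPL9B (-1.62), YDR042C (-1.59), FUI1 (-1.58), PRM7 (-1.57) and HSP26 (-1.51). Between -1.5 and -1 were OPT2 (-1.49), ZPS1 (-1.42), EMP65 (-1.38), CTO1 (-1.35), MEP1 (-1.35), TYE7 (-1.29), URA8 (-1.26), SNR51 (-1.26), RPL7B (-1.25), PRM4 (-1.07), MTO1 (-1.07) and ERF2 (-1.05). Between -1 and 0 were RPL8A (-0.98), RPS14B (-0.97), HXT1 (-0.95), MAD1 (-0.94), SSU1 (-0.94), TIM18 (-0.91), YIL092W (-0.91), TRS31 (-0.89), MSC3 (-0.86), FLX1 (-0.83), YOL107W (-0.79), YNL040W (-0.79), YKL069W (-0.78), MCH5 (-0.73), IMO32 (-0.71), HPT1 (-0.71), OSM1 (-0.68) and REX2 (-0.62). Positive differences were those of RRN3 (0.58), ECM29 (0.59), CIT2 (0.60), GPI14 (0.92), SSA4 (1.02), EFM6 (1.11), tW(CCA)P (1.26), YJL047C-A (1.36), tI(AAU)G (1.36) and LIN1 (1.55). CSM4, PIR5 and tI(AAU)G had a mean under 100 over the 8 libraries. No cause of these differences was tested.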

How the results depend on the processing

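The difference between the responses kept its sign for the 50 called features in every alternative that tested them. These were all 19 for 47 of the features, and 18 for CSM4, PIR5 and tI(AAU)G, not tested at a mean of at least 100. The alternatives reuse the libraries by which the 50 were called, so a kept sign is a weak check. Of the 50, 15 stayed called in each of the 11 alternatives that keep the 8 libraries and tested them (PIR5, one of these, was tested in all but the stricter filter), and HEM4 and CTO1 in all 19. The features with the higher response to Las1 depletion numbered 38 with DESeq2, 48 with the replicate block within strain, 6 with a replicate block shared by both strains, and 0 to 25 when 1 library was left out. Those with the higher response to Rrp44 depletion numbered 88 with DESeq2, 121 with the block within strain, 22 without an intensity trend, 69 with a pseudocount of 10, and 2 to 113 when 1 library was left out. Within the tables the block gave 1657 features lower after Las1 depletion, and 4 higher and 4 lower in WT. Leaving out 1 library gave 507 to 1653 features lower after Las1 depletion, and 489 to 1556 higher and 155 to 1328 lower after Rrp44 depletion. The tRNA median was 0.54 with no filter and 0.47 with a pseudocount of 10, and the median of features without a RefSeq match was -0.052 at a mean of at least 100. When 1 library was left out, median differences ranged from -0.46 to -0.094 for r-protein genes, from 0.013 to 0.19 for Hsf1 targets, from -0.97 to -0.59 for the RPL4, RPL7 and RPL22 pairs, from -0.00054 to 0.064 for ribosome biogenesis genes, from -0.52 to -0.34 for the attenuated genes, from -0.71 to -0.15 for snoRNAs, from 0.54 to 1.01 for tRNAs and from -0.35 to -0.089 for features without a RefSeq match. The cause of these changes was not tested.

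With 2 libraries per group, the p-values measure the spread of isolates grown on separate days, and a left-out library leaves a group with 1 that is assumed to vary like the others. Differences in genes with few reads, such as CSM4, were not resolved in size. Raised or lowered mock levels in Rrp44-AID cells and the separate normalization of the tables limit any comparison of levels. Near-identical paralogs, tRNA copies and overlapping genes share reads.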

Other observations

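With the replicate block 119 more features were called, 38 with the higher response to Las1 and 81 with the higher response to Rrp44 depletion, among them 88 protein-coding genes and 16 snoRNAs. The genes named here were chosen after their values were seen. NCE103, the carbonic anhydrase of yeast, had responses of 2.57 and 0.65 and a difference of 1.92 ± 0.37 (limma adjusted p = 0.060 without and 0.0011 with the block). PYC1, a pyruvate carboxylase, had 1.15 and 0.37, with a difference of 0.78 ± 0.18 (0.12 and 0.021, limma adjusted p). HXT7, a high-affinity glucose transporter, had 1.32 and 0.28, with a difference of 1.04 ± 0.23 (0.093 and 0.045, limma adjusted p), opposite in sign to the low-affinity transporter HXT1. CUE5, a ubiquitin-binding autophagy receptor, had -0.47 and -1.30, with a difference of 0.83 ± 0.19 (0.11 and 0.0064, limma adjusted p). In WT cells given auxin, NCE103 had 0.63, PYC1 0.09, HXT7 -0.68 and CUE5 -0.07, none of them called. The WT value of NCE103 was thus close to its Rrp44 response.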
